A study of Mus musculus with 30 samples.

Results

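Pericytes sorted from the small intestinal lamina propria of mice were compared with the pooled fibroblasts (FB) of the same tissue. Libraries were chosen by their sample labels: the 3 pericyte libraries, and 9 FB libraries from 3 sorted FB populations that were weighted equally. That makes 12 of the 30 libraries of the series, which holds 10 sorted populations of the small intestine and colon with 3 libraries each.

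Pericytes are mural cells embedded in the basement membrane of capillaries and venules, where they touch the endothelium. They are known for contractile and ion channel genes, for signalling through PDGF receptor beta and the Notch receptors, and for their part in vessel stability and tone. Fibroblasts of the lamina propria lie outside that basement membrane, build the interstitial matrix, and send WNT, BMP and other growth factor signals to the epithelium.

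All mice were untreated C57BL6/Nrj animals of 8 to 10 weeks, and the labels name 3 individual mice as the source of both tissues. Cell suspensions were depleted at the sorter of dead, Lineage, CD31+, BP3+, EpCAM+ and NCAMhi cells, and each gated population was sequenced in bulk from Ovation Ultralow V2 libraries. Pericytes were gated as PDGFRα−ESAM-1+PDPN− cells. The FB were ESAM-1−: CD34+ FB (PDGFRα intermediate; the label names an Igfbp5+ and a CD81+ subset inside this gate), PDGFRαhi FB (CD34−) and Fgfr2+ FB (PDGFRα intermediate, CD34−). Smooth muscle cells (SMC; PDGFRα−ESAM-1+PDPN+) of the small intestine, and pericytes and 4 FB populations (CD81+, CD90+, Fgfr2+ and PDGFRαhi) of the colon, serve as points of comparison.

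Total estimated counts of the 12 libraries ran from 2245052 (Fgfr2+ FB library 3) to 18148945, with a median of 9253859. The pericyte libraries held 6185421, 9075187 and 7860140. A count was seen for 12710, 14269 and 15809 genes in pericyte libraries 1, 2 and 3. Levels are given as CPM after TMM scaling, with pericyte libraries always in the order 1, 2 and 3, and FB libraries as the lowest, the highest and the median of 9. A gene was called when its edgeR adjusted p was below 0.05 and its log2 fold change (log2FC), pericytes minus the mean of the 3 FB group means, lay beyond 1.5 in either direction (n = 3 pericyte and 9 FB libraries). The ± gives the standard error worked back from the log2FC and the F statistic of the fit, whose spread is shared over the groups. With 3 libraries a group, an exact permutation test against a single FB population cannot go below p = 0.1, so the p-values rest on the spread that the fit shares over genes and groups. Floors and intervals of folds with few counts cover counting error only. A ratio of means pools the counts of the libraries on the side with few counts, so it can differ from the ratio of mean CPM. Fitted log2FC with a mean below 1 CPM on the lower side rest on few counts and give no exact size. The values come from bulk RNA, in which a larger share of cells that make a transcript and more of it per cell cannot be told apart.

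The label was checked against 3 markers. Rgs5, a GTPase activator that damps G-protein signalling in mural cells, stood at 37270.0, 21082 and 33819 CPM in pericytes, above every FB library (150.4 to 4076 CPM (median 1889.8); log2FC 4.73 ± 0.22, adjusted p = 3.34e-08). Cspg4, the NG2 proteoglycan, was at 1209, 215 and 578 CPM in the pericyte libraries and at 60.2 to 638 CPM (median 184) in the FB libraries. Cspg4 overlapped, since pericyte library 2 lay inside the FB range (log2FC 1.76 ± 0.43, adjusted p = 0.0136), and its log2FC was 0.98 without pericyte library 1, adjusted p = 0.142. Esam, an adhesion molecule of endothelial and mural cells, stood at 21.3, 195 and 102 CPM in the pericyte libraries and at 0.0691 to 1.71 CPM (median 0.227) in the FB libraries. Its protein defined the gate, as did those of Pdgfra (10.7, 9.86 and 10.7 CPM against 591 to 6586 CPM (median 820.0)), Pdpn (0.410, 0.122 and 0 CPM against 21.3 to 90.8 CPM (median 43.0)) and Cd34 (5.94, 1.1 and 16.4 CPM against 37.1 to 673 CPM (median 136)), so the separation of these 4 genes is not a finding. All 3 markers were higher in the pericytes, but Esam belongs to the gate and is no separate check of the label. The call of Cspg4 was lost without pericyte library 1. FB were not free of Rgs5: its mean was 3778 CPM in CD34+ FB, 253 in PDGFRαhi FB and 1747 in Fgfr2+ FB.

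The pericyte libraries stood apart from each other more than the FB libraries did. Their biological coefficient of variation was 1.19, against 0.22 in CD34+, 0.577 in PDGFRαhi and 0.877 in Fgfr2+ FB. The common value of the 12-library fit was 0.785, below that of the pericytes, so the ± does not describe the spread of the pericyte libraries alone. Across genes, log2 CPM correlated at r = 0.689 to 0.777 among pericyte libraries, while each reached 0.659, 0.711 and 0.752 with its closest FB library; genes are not independent replicates. On the leading principal component, with 33.6% of the variance, the pericyte libraries lay at 281, 138 and 85.3 and the FB libraries between -70.5 and -38.7. Library 1, with the fewest genes seen, was thus farthest from the FB. Counts are therefore also given without each pericyte library.

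Compared with the pooled FB, 1383 of 15960 tested genes were higher in pericytes (8.67%) and 1103 were lower (6.91%), together 2486 genes or 15.6%. Pericyte libraries lay wholly above the FB libraries for 563 of the higher genes (40.7%), and wholly below them for 787 of the lower genes (71.4%); over all tested genes the shares were 4.72% and 7.08%. Of the other higher genes, 505 had 2 pericyte libraries above all FB libraries and 293 had a single library above, which was library 1 for 172 of them. Without pericyte library 1, 2 or 3 the higher genes numbered 1195, 1471 and 1648 and the lower genes 1059, 1147 and 1732. The last count is the only 1 of these 6 that moved by more than 1.5 times. With limma 616 genes were higher and 254 lower, and with DESeq2 1638 and 1770. Higher genes without overlap numbered 755, 805 and 862 without those libraries, and lower genes without overlap 889, 983 and 1491.

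The fibroblast populations, each set against the same pericyte libraries, gave 592 higher (3.71%) and 943 lower genes (5.91%) for CD34+ FB, 681 (4.27%) and 907 (5.68%) for PDGFRαhi FB, and 751 (4.71%) and 880 (5.51%) for Fgfr2+ FB. In all 3 of these contrasts, 321 genes were higher (2.01%) and 466 lower (2.92%) in pericytes. Omitting pericyte library 3 raised that lower count to 900, and gave 924 higher and 1511 lower genes against CD34+ FB, 1494 lower against PDGFRαhi FB and 1446 lower against Fgfr2+ FB. Against CD34+ FB, omitting 1 of its libraries gave 305 to 310 higher and 531 to 562 lower genes. Against PDGFRαhi FB, omitting its library 1 or 2 gave 388 or 397 higher and 596 or 556 lower genes. DESeq2 gave 1225 higher and 1522 lower genes against CD34+ FB, 1399 and 1477 against PDGFRαhi FB, and 1460 and 1546 against Fgfr2+ FB. The median log2FC of all tested genes was 0.0232, and list medians given here are to be read beside it. Counts of called list members are likewise to be read beside the 8.67% higher and 6.91% lower of all tested genes.

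**Figure D1:**
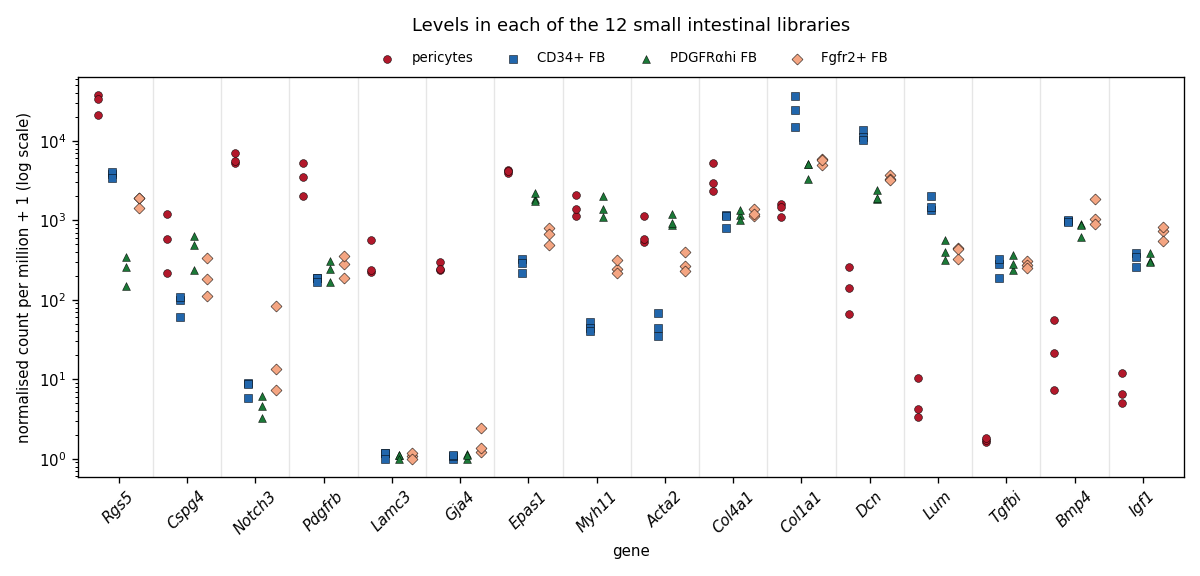
Normalised CPM plus 1, on a log axis, of 16 genes in each of the 12 small intestinal libraries, with a symbol for each population. Notch3, Lamc3 and Gja4 separate the pericytes from all FB libraries, Myh11 and Acta2 reach pericyte levels in PDGFRαhi FB, and Lum, Tgfbi and Igf1 are low in pericytes.

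The largest increases without overlap are named here as single genes, and a shared function was not tested. Among the 12 higher genes taken by fold change were the potassium channels Kcnh1 and Kcnt1, the gap junction gene Gja4, the laminin chain Lamc3, the protocadherin Pcdh1, the adrenergic receptor Adra2a, the Notch target Hey2, the LIM-domain cofactor Fhl5, the lipoxygenase Alox15, the neurokinin receptor Tacr3 and the adaptor Stac. Pcdh1, a cell adhesion molecule, had 762, 734 and 768 CPM in pericytes, above the FB range of 0.261 to 3.31 CPM (median 0.553) (log2FC 9.96 ± 0.51, adjusted p = 4.35e-08). Kcnt1, a sodium-activated potassium channel, was at 601, 343 and 386 CPM in pericytes, above all FB libraries at 0 to 1.48 CPM (median 0.368) (log2FC 10.79 ± 0.54, adjusted p = 4.33e-08). Gja4, which encodes connexin 37, stood at 236, 299.7 and 241 CPM in pericytes, above every FB library (0 to 1.47 CPM (median 0.113); log2FC 10.62 ± 0.56, adjusted p = 4.88e-08). Kcnh1, a voltage-gated potassium channel, had 595, 45.5 and 20.4 CPM in pericytes, above the FB range of 0 to 0.138 CPM (median 0) (a 4161-fold ratio of means with a counting interval of 1783 to 12815, adjusted p = 2.51e-06). Library 1 carried most of the Kcnh1 signal, whereas Pcdh1 and Gja4 were even over the 3 libraries. Kcnh1, Gja4, Lamc3, Hey2, Tacr3, Stac and Alox15 missed the filter of 3 libraries without any 1 pericyte library and were not tested there. Tacr3 was also uneven, at 9.02, 182 and 21.6 CPM against 0 to 0.368 CPM (median 0) in FB (a 3351-fold ratio of means with a counting interval of 928 to 27671, adjusted p = 4.90e-05). Stac (26.6, 42.5 and 11.4 CPM) and Alox15 (46.9, 32.4 and 12.6 CPM) were seen in each pericyte library and had at most 0.261 CPM in any FB library.

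Among the 12 lower genes taken in the same way were matrix proteins and proteases (Tgfbi, Htra3), prostaglandin synthesis (Ptgs2), peptide and chemokine signalling (Ramp2, Cxcl14), channel subunits (Kcng4, Lrrc55), and the enzymes Ces1d, Alpl and Hs3st1, besides the PHD-finger gene Phf24. Tgfbi, an integrin-binding matrix protein, was at 0.615, 0.730 and 0.848 CPM in pericytes, below all FB libraries at 188 to 363 CPM (median 281) (log2FC -8.50 ± 0.43, adjusted p = 4.33e-08). Htra3, a secreted serine protease, stood at 1.43, 1.1 and 0.727 CPM in pericytes, below every FB library (86.0 to 1099 CPM (median 341); log2FC -8.57 ± 0.60, adjusted p = 4.70e-07). Ces1d, a carboxylesterase of lipid metabolism, was at 0.410, 0.122 and 0.363 CPM in pericytes and 33.7 to 174 CPM (median 126) in FB (a 395-fold ratio of means with a counting interval of 181 to 1076, adjusted p = 2.71e-06). Cxcl14, a chemokine, had no count in any pericyte library and 2.35 to 182 CPM (median 50.9) in the FB libraries. With 3 counts per library as the floor, Cxcl14 was at least 127-fold lower, adjusted p = 3.32e-05. Its FB level differed by population, with means of 3.36 CPM in CD34+, 46.5 in PDGFRαhi and 121 in Fgfr2+ FB. Ptgs2, the inducible cyclooxygenase, was likewise without a count in pericytes and stood at 13.1 to 54.4 CPM (median 18.2) in FB (at least 59.6-fold lower, adjusted p = 7.46e-05). Phf24 (at least 48.9-fold lower, adjusted p = 0.00204) and Kcng4 (at least 60.3-fold lower, adjusted p = 0.00261) also had no pericyte count. Ramp2, a partner of the calcitonin-like receptor, had a count in pericyte library 2 alone and 10.5 to 139 CPM (median 62.6) in FB (a 1249-fold ratio of means with a counting interval of 224 to 49343, adjusted p = 3.21e-05).

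Genes known for mural identity were the list with the highest median. Of 24 tested members, 22 were higher (91.7%), with a median log2FC of 5.77; Anpep (1.41) and S1pr3 (0.1) were not called. Leaving out any library gave 20 to 23 higher members. Pdgfrb, the receptor through which PDGF-B recruits pericytes, had 5224, 3512 and 2021 CPM in pericytes, above the FB range of 166 to 359 CPM (median 189) (log2FC 4.02 ± 0.27, adjusted p = 3.67e-07). Vtn, vitronectin, was at 319, 221 and 213 CPM in pericytes, above all FB libraries at 0.113 to 1.84 CPM (median 0.609) (log2FC 8.69 ± 0.67, adjusted p = 1.07e-06). Mcam, the adhesion molecule CD146, stood at 1065, 496 and 686 CPM in pericytes, above every FB library (1.38 to 35.3 CPM (median 8.44); log2FC 6.25 ± 0.63, adjusted p = 1.45e-05). Des, the intermediate filament protein desmin, had 1059, 1159 and 1094 CPM in pericytes, above the FB range of 17.8 to 151 CPM (median 50.4) (log2FC 4.52 ± 0.36, adjusted p = 1.30e-06). Per transcript length, Rgs5 was the most abundant member in pericytes at a mean of 10025 TPM, followed by Notch3 at 936 and Pdgfrb at 829. TPM are the deposited per-length unit, rescaled here so that the matched genes sum to the same total in each library. A transcript without a matched gene, which took 33.0 to 40.5% of the deposited TPM in the pericyte libraries, is left out in this way. TPM are compared here only between genes of the same libraries.

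Among the FB, mural genes were not uniformly low. Abcc9, the sulphonylurea receptor subunit of vascular KATP channels, was at 2042, 2315 and 1837 CPM in pericytes, with means of 23.2 in CD34+, 1744 in PDGFRαhi and 42.5 in Fgfr2+ FB. Its groups overlapped through the PDGFRαhi libraries (log2FC 4.15 ± 0.25, adjusted p = 1.26e-07). Kcnj8, the pore of the same channel, showed 421, 77.5 and 299 CPM in pericytes and means of 1.08, 554 and 21.8 in those FB groups. Kcnj8 was thus called against the pooled mean (log2FC 3.53 ± 0.52, adjusted p = 4.01e-04) although PDGFRαhi FB had the higher mean. The log2FC of Kcnj8 against the CD34+, PDGFRαhi and Fgfr2+ groups were 7.96, -1.05 and 3.67.

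The higher Notch signalling genes included receptors, ligands and targets. Of 22 tested members 10 were higher (45.5%) and Dll1 was lower, with a median of 2.13; without pericyte library 3 the higher members numbered 7, where Hey2 and Lfng missed the filter of 3 libraries and were not tested. With 6 counts in 2 libraries Lfng was not called there (2.68). Notch3, the receptor characteristic of mural cells, was at 5239, 7029.9 and 5657 CPM in pericytes, above all FB libraries at 2.27 to 82.3 CPM (median 6.36) (log2FC 9.35 ± 0.57, adjusted p = 1.67e-07). Notch1 was also above all FB libraries (log2FC 4.16 ± 0.31, adjusted p = 8.95e-07). Jag1, a ligand, stood at 597, 339 and 395 CPM in pericytes, above every FB library (5.04 to 28.6 CPM (median 12.2); log2FC 5.19 ± 0.37, adjusted p = 5.16e-07). Dll4, a further ligand, was at 539, 88.2 and 24.7 CPM in pericytes and 0 to 5.33 CPM (median 0.227) in FB (log2FC 9.28 ± 1.1, adjusted p = 5.78e-05). Heyl, a transcriptional repressor and Notch target, had 892, 1399 and 1175 CPM in pericytes, above the FB range of 1.13 to 56.2 CPM (median 12.9) (log2FC 6.46 ± 0.52, adjusted p = 1.63e-06). Hey2, its paralogue, was at 77.7, 75.2 and 110.2 CPM in pericytes, above all FB libraries at 0 to 0.214 CPM (median 0.0919) (a 1183-fold ratio of means with a counting interval of 574 to 2942, adjusted p = 3.18e-07). Nrarp, a feedback inhibitor and target, stood at 104, 26.4 and 104 CPM in pericytes and 0 to 3.55 CPM (median 0.113) in FB (log2FC 8.09 ± 0.96, adjusted p = 5.78e-05). Dll4 and Nrarp varied more between pericyte libraries than Notch3 and Heyl did. Maml3 (coactivator), Hey1 and Lfng were the remaining higher members. Hey1 was not called without pericyte library 3 (2.88 without pericyte library 3, adjusted p = 0.111), nor Lfng (log2FC 5.42 ± 1.34, adjusted p = 0.0218) without CD34+ FB library 1 (adjusted p = 0.0510); it was not tested without CD34+ FB library 2 or 3. The ligand gene Dll1 had no pericyte count and 1.57 to 30.4 CPM (median 10.1) in FB (at least 27.9-fold lower, adjusted p = 0.00390). Per length, Notch3 at 936 TPM exceeded Notch1 (137), Notch4 (27.7) and Notch2 (15.4) in pericytes. Notch2 itself was not called (log2FC -0.13). Of the targets, Hes1 was not called (1.03) and Hes5 had no pericyte count.

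Because receptors and several targets were higher, the promoters of the list were searched on both strands for the core of the binding site of the Notch effector RBPJ. RefSeq promoters (GRCm38.p6, 250 bases before to 50 after the start) were available for 19 of its 24 genes. The letters TGGGAA were found for 6 of the 19 (Hes5, Hey2, Lfng, Maml2, Maml3 and Rbpj) and in 25.6% of all 32851 promoters (any promoter of 28.3% of 27025 genes). The longer GTGGGAA was found for Hes5, Hey2 and Lfng and in 6.38% of all promoters (7.25% of genes), and CGTGGGAA, which contains both, for Hey2 and Lfng and in 0.734% (0.862%). A CArG box (CC, 6 letters A or T, GG), searched in the contractile list, was found for 5 of its 28 genes with a promoter (Fhl2, Ldb3, Myl6, Myl9 and Vcl) and in 1.63% of all (1.81% of genes). A match is a description of letters only. The Hey2 promoter (chr10:30842734-30843033, minus strand) and that of Notch3 (chr17:32166841-32167140, minus strand) are shown as a target with and a receptor without the letters, with TGGGAA and its reverse complement in capitals.
Hey2: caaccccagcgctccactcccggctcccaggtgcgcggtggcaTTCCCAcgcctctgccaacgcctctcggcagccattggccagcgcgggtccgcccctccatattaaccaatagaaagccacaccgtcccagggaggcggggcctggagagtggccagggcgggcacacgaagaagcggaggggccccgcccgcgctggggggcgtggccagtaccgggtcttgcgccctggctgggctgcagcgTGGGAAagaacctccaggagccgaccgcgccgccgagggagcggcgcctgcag
Notch3: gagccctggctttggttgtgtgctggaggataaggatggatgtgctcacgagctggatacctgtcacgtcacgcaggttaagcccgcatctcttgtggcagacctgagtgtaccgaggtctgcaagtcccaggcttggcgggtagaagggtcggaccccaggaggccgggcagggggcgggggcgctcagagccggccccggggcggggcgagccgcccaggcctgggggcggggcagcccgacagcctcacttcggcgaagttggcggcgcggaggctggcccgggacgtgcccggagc

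Ion channels and calcium handling genes of vascular tone had 36 tested members, of which 16 were higher (44.4%) and 4 lower (11.1%), with a median of 1.62. Cacna1c, the pore of the L-type calcium channel, stood at 1128, 924 and 872 CPM in pericytes, above every FB library (6.31 to 41.5 CPM (median 22.4); log2FC 5.56 ± 0.4, adjusted p = 6.52e-07). Ano1, a calcium-activated chloride channel, had 1046, 528 and 684 CPM in pericytes, above the FB range of 0 to 3.31 CPM (median 0.748) (log2FC 9.59 ± 0.75, adjusted p = 1.21e-06). Atp1b2, a beta subunit of the sodium pump, was higher without overlap (log2FC 4.27 ± 0.27, adjusted p = 2.01e-07). Ryr2, a calcium release channel of the sarcoplasmic reticulum, stood at 185, 49.3 and 176 CPM in pericytes and 1.84 to 14 CPM (median 3.15) in FB (log2FC 4.92 ± 0.44, adjusted p = 3.88e-06). Trpc6, activated by diacylglycerol, was at 38.1, 34.7 and 18.8 CPM in pericytes and 0 to 3.68 CPM (median 0) in FB (log2FC 7.98 ± 1.2, adjusted p = 8.08e-04). The 4 lower members were Kcnn3, Cacna1g, Itpr3 and Ryr3. Kcnn3, a small-conductance calcium-activated potassium channel, was at 3.48, 7.54 and 6.91 CPM in pericytes, below all FB libraries at 291 to 1218 CPM (median 843) (log2FC -6.83 ± 0.36, adjusted p = 4.81e-08). Cacna1g, the pore of a T-type calcium channel, stood at 0.820, 0.487 and 1.94 CPM in pericytes, below every FB library (12.4 to 319 CPM (median 66.5); log2FC -5.85 ± 0.64, adjusted p = 3.15e-05). Itpr3 had a pericyte count in library 3 alone, with a log2FC of -5.31. Ryr3 (log2FC -3.71 ± 0.93, adjusted p = 0.0143) overlapped between the groups.

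Vasoactive receptors and cGMP signalling genes moved in both directions: of 56 tested members 19 were higher (33.9%) and 9 lower (16.1%), with a median of 0.23. Adra2a, the alpha 2A adrenergic receptor, had 393, 241 and 211 CPM in pericytes, above the FB range of 0 to 1.1 CPM (median 0.184) (log2FC 10.16 ± 0.68, adjusted p = 3.67e-07). Agtr1a, the angiotensin II receptor, was at 463, 613 and 272 CPM in pericytes, above all FB libraries at 0.227 to 146 CPM (median 66.6) (log2FC 5.12 ± 0.32, adjusted p = 1.90e-07). In PDGFRαhi FB Agtr1a was near 0 (mean 0.308 CPM), while CD34+ and Fgfr2+ FB had means of 72.2 and 97.1. Ptgir, the prostacyclin receptor, stood at 286, 131 and 95.2 CPM in pericytes, above every FB library (0 to 15.9 CPM (median 0.415); log2FC 7.88 ± 0.52, adjusted p = 3.05e-07). Avpr1a, a vasopressin receptor, was also higher without overlap (log2FC 4.53 ± 0.46, adjusted p = 1.51e-05). The nitric oxide receptor guanylate cyclase was higher in 3 subunits. Gucy1a1 had 1484, 1303 and 1228 CPM in pericytes, above the FB range of 134 to 429 CPM (median 349) (log2FC 2.26 ± 0.20, adjusted p = 4.26e-06). Gucy1b1 (log2FC 2.35 ± 0.23, adjusted p = 1.10e-05) and Gucy1a2 (log2FC 3.58 ± 0.24, adjusted p = 3.28e-07) separated the groups in the same way. Pde3a, a cyclic nucleotide phosphodiesterase, was higher without overlap (log2FC 3.28 ± 0.19, adjusted p = 9.67e-08). Rgs4, like Rgs5 a regulator of G-protein signalling, stood at 619.7, 322 and 459 CPM in pericytes and 0.907 to 13.6 CPM (median 5.77) in FB (log2FC 6.14 ± 0.53, adjusted p = 2.97e-06). Prkg1, the cGMP-dependent kinase, was higher as well (log2FC 2.67 ± 0.42, adjusted p = 6.73e-04).

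Several lipid and peptide receptors were lower. Lpar1, a receptor of lysophosphatidic acid, was at 2.25, 0.730 and 1.45 CPM in pericytes, below all FB libraries at 107 to 557 CPM (median 368) (log2FC -7.72 ± 0.47, adjusted p = 1.68e-07). Ptger4, a prostaglandin E2 receptor, stood at 0.205, 0.122 and 0.121 CPM in pericytes, below every FB library (19 to 91.4 CPM (median 34.1); a 300.1-fold ratio of means with a counting interval of 103 to 1455, adjusted p = 5.07e-06). P2ry1, a purinergic receptor, was lower in the same way (log2FC -4.96 ± 0.51, adjusted p = 1.56e-05). Aplnr, the apelin receptor, was at 0.410, 0.365 and 0.848 CPM in pericytes and had FB means of 4.16 in CD34+, 589.9 in PDGFRαhi and 54.7 in Fgfr2+ FB (log2FC -6.48 ± 1.16, adjusted p = 0.00178). Ednrb, an endothelin receptor, measured 26.6, 15.6 and 42.9 CPM against 11.4 to 1044 CPM (median 115) in FB (log2FC -1.82 ± 0.41, adjusted p = 0.00819), with a mean of 775 CPM in PDGFRαhi and 13.0 in CD34+ FB.

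Contractile and actin cytoskeleton genes had 32 tested members, 15 of them higher (46.9%), with a median of 1.56. Lmod1, a leiomodin that nucleates actin filaments, had 163, 180.3 and 202 CPM in pericytes, above the FB range of 0.340 to 11.1 CPM (median 5.88) (log2FC 5.93 ± 0.35, adjusted p = 1.26e-07). Synpo2, an actin-bundling protein, was at 1196, 929.8 and 753 CPM in pericytes, above all FB libraries at 54.7 to 466 CPM (median 231) (log2FC 2.38 ± 0.27, adjusted p = 3.77e-05). The main smooth muscle contractile genes overlapped with the FB. Myh11, the smooth muscle myosin heavy chain, was at 2061, 1129 and 1401 CPM in pericytes and at means of 44.5, 1493 and 259 in CD34+, PDGFRαhi and Fgfr2+ FB (log2FC 2.61 ± 0.23, adjusted p = 3.90e-06). Acta2, smooth muscle actin, was at 1126, 534 and 586 CPM and at 48.4, 994 and 299 in the same groups (log2FC 1.67 ± 0.28, adjusted p = 0.00106). Against PDGFRαhi FB alone, the log2FC were 0.05 (adjusted p = 0.941) for Myh11 and -0.39 (adjusted p = 0.540) for Acta2. Leaving out pericyte library 1 ended the call of Acta2 (1.24, adjusted p = 0.00643), Myl9 (1.02, adjusted p = 0.0495), Vcl (1.26, adjusted p = 0.00250) and Mylk (1.33, adjusted p = 9.85e-05). Mylk also lay within the fold threshold without PDGFRαhi FB library 1 or 3. Synm, the intermediate filament protein synemin, was the lower member: it stood at 0.410, 0.608 and 0.727 CPM in pericytes, below every FB library (13.5 to 125 CPM (median 54.2); log2FC -6.61 ± 0.73, adjusted p = 3.32e-05). Without pericyte library 2 the lower members numbered 2.

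Transcription factors of mesenchymal and mural cells had 49 tested members, 20 higher (40.8%) and 4 lower (8.16%), with a median of 0.59. Over all tested genes the shares were 8.67% and 6.91%, so the lower share was near that of all genes. Ebf1, a factor of mural and adipocyte lineages, had 1519.5, 1212 and 1013 CPM in pericytes, above the FB range of 9.40 to 89.7 CPM (median 14.7) (log2FC 5.80 ± 0.23, adjusted p = 7.41e-09). Nr2f2, the orphan receptor COUP-TFII, was at 2891, 1053 and 1250.4 CPM in pericytes, above all FB libraries at 25.6 to 94.9 CPM (median 55.8) (log2FC 5.09 ± 0.30, adjusted p = 1.34e-07). Epas1, the hypoxia-inducible factor HIF-2 alpha, stood at 3983, 4304 and 4219.6 CPM in pericytes, above every FB library (215 to 2176 CPM (median 673); log2FC 2.61 ± 0.18, adjusted p = 4.59e-07). Ebf2 (log2FC 7.81 ± 0.60, adjusted p = 1.07e-06), Mef2c (log2FC 5.38 ± 0.61, adjusted p = 3.77e-05), Prrx1 (log2FC 5.51 ± 0.53, adjusted p = 8.74e-06) and the forkhead factor Foxs1 (log2FC 5.98 ± 0.90, adjusted p = 4.37e-04) also lay above all FB libraries. Tbx2 was uneven, at 1085, 239 and 201 CPM against 13.2 to 254 CPM (median 63.6) in FB, and its log2FC of 2.96 was 1.73 without pericyte library 1, adjusted p = 0.0180. Zeb2 was above all FB libraries but varied among them, with pericytes at 3698, 3227 and 3118 CPM and FB means of 1864 in CD34+, 121 in PDGFRαhi and 2348 in Fgfr2+ FB (log2FC 2.09 ± 0.15, adjusted p = 5.21e-07). The lower members were Sox9 (log2FC -4.46 ± 0.97, adjusted p = 0.00647), Meox1, Osr1 and Hand2. Meox1 was at 0, 0.122 and 1.33 CPM in pericytes (log2FC -4.05 ± 1.04, adjusted p = 0.0162), and with the few counts left at -6.62 without pericyte library 3, adjusted p = 0.00147. Hand2 had no pericyte count (at least 5.32-fold lower, adjusted p = 0.0472), and Osr1 overlapped (log2FC -1.90 ± 0.60, adjusted p = 0.0444). Neither was called without pericyte library 1 or 2, any CD34+ FB library, PDGFRαhi FB library 1 or 2, or Fgfr2+ FB library 2 or 3, with adjusted p of 0.0501 to 0.107 for Osr1 and 0.0517 to 0.0885 for Hand2 over all omissions that lost them. The lower members numbered 2 without CD34+ FB library 1 or 2, PDGFRαhi FB library 2 or Fgfr2+ FB library 3.

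Basement membrane genes had 33 tested members, 10 higher (30.3%) and 5 lower (15.2%), with a median of 0.34. Lamc3, the laminin gamma 3 chain, had 220.1, 564 and 237 CPM in pericytes, above the FB range of 0 to 0.189 CPM (median 0.108) (a 3214-fold ratio of means with a counting interval of 1748 to 6702, adjusted p = 4.22e-08). Col4a2, a chain of the main vascular collagen IV, was at 4892, 3291 and 2966 CPM in pericytes, above all FB libraries at 648 to 1559 CPM (median 1004) (log2FC 1.94 ± 0.20, adjusted p = 1.63e-05). Col4a1, its partner chain, stood at 5254, 2980.2 and 2343 CPM in pericytes, above every FB library (805 to 1408 CPM (median 1179); log2FC 1.66 ± 0.23, adjusted p = 2.04e-04). The log2FC of Col4a1 was 1.24 without pericyte library 1, adjusted p = 8.47e-04. Lamb2, the laminin beta 2 chain, was higher without overlap (log2FC 2.03 ± 0.27, adjusted p = 1.53e-04). Bcam, a laminin receptor, stood at 279.7, 47.5 and 159 CPM in pericytes and 0.340 to 16.0 CPM (median 5.79) in FB (log2FC 4.65 ± 0.71, adjusted p = 4.81e-04). Lama5, the laminin alpha 5 chain, was at 449, 11.4 and 104 CPM in pericytes and 0.0869 to 20.9 CPM (median 3.68) in FB, where pericyte library 2 overlapped (log2FC 5.62 ± 1.01, adjusted p = 0.00184). Other laminin chains were lower. Lama1 had 0, 0.608 and 0.363 CPM in pericytes, below the FB range of 17.9 to 249 CPM (median 62.2) (log2FC -7.53 ± 0.66, adjusted p = 3.62e-06). Lama4, the alpha chain of endothelial basement membranes, stood at 237, 369 and 233 CPM in pericytes and 471 to 2051 CPM (median 681) in FB (log2FC -1.59 ± 0.25, adjusted p = 5.36e-04), and it fell short of the fold threshold without pericyte library 1 or 3 (-1.49 without pericyte library 1, adjusted p = 0.00224; -1.46 without pericyte library 3, adjusted p = 0.00304). Col15a1 (log2FC -5.77 ± 0.87, adjusted p = 4.35e-04), Hspg2 (log2FC -1.6 ± 0.26, adjusted p = 9.17e-04) and Nid2 (log2FC -1.52 ± 0.35, adjusted p = 0.00906) completed the lower members. Hspg2, perlecan, was at -1.35 without pericyte library 2, adjusted p = 0.00374, and at 0.0688 with length-scaled TPM counts, adjusted p = 0.947. Nid2, nidogen 2, was at -1.46 without pericyte library 1, adjusted p = 0.0237, and at -1.28 without pericyte library 2, adjusted p = 0.0328. It also fell below the fold threshold without CD34+ FB library 3 (-1.43, adjusted p = 0.0194) and without Fgfr2+ FB library 1 (-1.38, adjusted p = 0.0116).

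Integrins, the receptors for these matrices, had 18 tested members. Higher were Itga1, Itga4, Itga7, Itga8, Itga10 and Itgb7, lower Itga5, Itga11 and Itgb8, and the median was -0.30. Itga7, a laminin-binding subunit, was at 129, 56.1 and 186 CPM in pericytes, above all FB libraries at 0.0919 to 2 CPM (median 0.735) (log2FC 7.44 ± 0.62, adjusted p = 2.39e-06). Itga1, a subunit for collagen IV, stood at 987, 659.5 and 579 CPM in pericytes, above every FB library (48.1 to 497 CPM (median 88.3); log2FC 2.69 ± 0.25, adjusted p = 4.88e-06). Itga4 (log2FC 3.12 ± 0.27, adjusted p = 2.97e-06) and Itga10 (log2FC 4.63 ± 0.87, adjusted p = 0.00252) were above all FB libraries too. Itga11, a subunit for fibrillar collagen, had 8.81, 3.16 and 2.79 CPM in pericytes, below the FB range of 146 to 1885 CPM (median 334) (log2FC -6.57 ± 0.49, adjusted p = 8.95e-07). Itgb8, which takes part in TGF-beta activation, was at 0, 0.243 and 0.363 CPM in pericytes and 9.38 to 114 CPM (median 16.2) in FB (a 117-fold ratio of means with a counting interval of 50 to 359, adjusted p = 4.88e-04). Itgb7 (log2FC 3.78 ± 1.08, adjusted p = 0.0275) lost its call in 7 of the 12 leave-outs and was at 1.78 without pericyte library 3, adjusted p = 0.288. Itga8 was at 36.9, 17.3 and 47.2 CPM in pericytes and at means of 4.06, 1.82 and 149 in CD34+, PDGFRαhi and Fgfr2+ FB, and thus below the last of these (log2FC 1.73 ± 0.48, adjusted p = 0.0244). Its log2FC was 1.44 without pericyte library 3, adjusted p = 0.0758, so that 4 members were higher there; with the 9 FB libraries as 1 group it was at -0.55, adjusted p = 0.832. Itga5 overlapped (log2FC -1.65 ± 0.48, adjusted p = 0.0305) and was called in 5 of the 12 leave-outs (-2.66 without pericyte library 2, adjusted p = 9.32e-04); in the others its adjusted p was 0.0519 to 0.0823 (pericyte libraries 1 and 3, the CD34+ FB libraries, and PDGFRαhi FB libraries 1 and 2).

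Interstitial matrix genes moved in the other direction: 30 of 48 tested members were lower (62.5%), with a median of -1.97, and none was higher in edgeR, DESeq2 or limma (2 at an unadjusted p below 0.05). Without pericyte library 1, 1 member was higher. Dcn, the proteoglycan decorin, was at 65.8, 138 and 256 CPM in pericytes, below all FB libraries at 1848 to 13856 CPM (median 3329) (log2FC -4.8 ± 0.39, adjusted p = 1.71e-06). Lum, lumican, stood at 3.28, 2.31 and 9.33 CPM in pericytes, below every FB library (318 to 2047 CPM (median 442); log2FC -7 ± 0.52, adjusted p = 8.95e-07). Dpt (log2FC -7.64 ± 0.57, adjusted p = 8.95e-07) and the collagen VI chain gene Col6a5 (log2FC -7.58 ± 0.42, adjusted p = 8.16e-08) were likewise below all FB libraries. Collagen I was lower but not near 0. Col1a1 had 1608, 1463 and 1102 CPM in pericytes, below the FB range of 3353 to 36642 CPM (median 5736) (log2FC -2.58 ± 0.29, adjusted p = 3.22e-05). Col1a2 (log2FC -2.80 ± 0.27, adjusted p = 1.04e-05), Bgn (log2FC -2.44 ± 0.17, adjusted p = 5.84e-07) and Fn1 (log2FC -1.93 ± 0.22, adjusted p = 3.77e-05) had the same pattern. Limma did not call Col1a1 and Col1a2, nor length-scaled TPM counts Fn1. Col3a1 overlapped, at 2068, 1360.2 and 1216 CPM in pericytes and means of 17646, 1535 and 4156 in CD34+, PDGFRαhi and Fgfr2+ FB (log2FC -1.6 ± 0.30, adjusted p = 0.00220). Its log2FC was -1.49 without pericyte library 2, adjusted p = 0.0115, -1.43 without pericyte library 3, adjusted p = 0.0117, and -1.46, adjusted p = 0.00284 without CD34+ FB library 1. Fbln1, fibulin 1, differed among the FB, with means of 3066 in CD34+, 9.24 in PDGFRαhi and 225 CPM in Fgfr2+ FB, against 2.05, 3.29 and 2.54 in pericytes (log2FC -6.09 ± 0.47, adjusted p = 1.21e-06).

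Metalloproteinases and their inhibitors had 24 tested members, with Timp3, Mmp11 and Adamts15 higher, 6 members lower (25%) and a median of 0.15. Timp3, a matrix-bound inhibitor, was at 3114, 3133 and 4843 CPM in pericytes, above all FB libraries at 57.8 to 872 CPM (median 441) (log2FC 3.54 ± 0.27, adjusted p = 9.65e-07). Adamdec1, a metalloprotease of intestinal stroma, stood at 97.8, 45.8 and 106 CPM in pericytes, below every FB library (4445 to 22343 CPM (median 5508); log2FC -6.56 ± 0.33, adjusted p = 4.33e-08). Mmp2, gelatinase A, was lower as well (log2FC -2.69 ± 0.35, adjusted p = 1.25e-04). Mmp11 (log2FC 2.34 ± 0.57, adjusted p = 0.0123) overlapped with FB. Adamts15 rested on library 1, at 255, 1.46 and 38.2 CPM in pericytes (log2FC 2.94 ± 0.83, adjusted p = 0.0255) and 0.59 without pericyte library 1, adjusted p = 0.677. Its adjusted p was 0.0520 without CD34+ FB library 1 and 0.0503 without PDGFRαhi FB library 3.

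**Figure D2:**
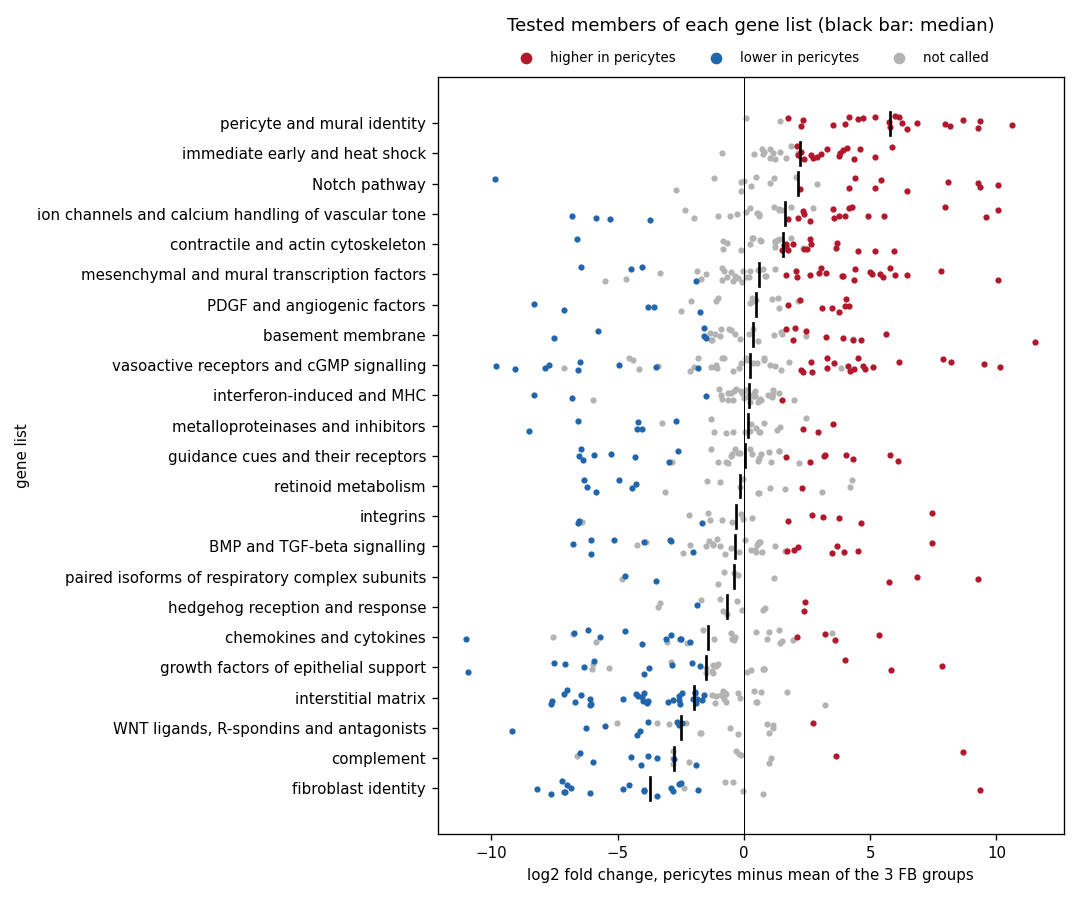
Log2 fold change, pericytes minus the mean of the 3 FB groups, of every tested member of 23 gene lists, with a black bar at the median of each list. Red and blue points are members called higher and lower; mural identity has the highest median at 5.77 and fibroblast identity the lowest at -3.70.

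PDGF and angiogenic factors had 26 tested members, 8 higher (30.8%) and 5 lower (19.2%), with a median of 0.47. Besides Pdgfrb, the higher members included ligands and endothelial-type receptors. Angpt2, a ligand of the Tie2 receptor, had 103, 197 and 152 CPM in pericytes, above the FB range of 3.29 to 23.3 CPM (median 7.39) (log2FC 4.18 ± 0.47, adjusted p = 3.77e-05). Pdgfa, a ligand of PDGF receptor alpha, was at 38.1, 235 and 364 CPM in pericytes, above all FB libraries at 5.51 to 23.7 CPM (median 13.8) (log2FC 4.05 ± 0.45, adjusted p = 3.46e-05). Tek, which encodes Tie2, stood at 185, 61.8 and 72.3 CPM in pericytes, above every FB library (0.789 to 55.0 CPM (median 5.88); log2FC 3.75 ± 0.54, adjusted p = 3.24e-04). Procr, the endothelial protein C receptor, was at 531, 127 and 451 CPM in pericytes and 5.13 to 209 CPM (median 82.6) in FB (log2FC 3.1 ± 0.47, adjusted p = 4.56e-04). The lower members were Pdgfra, Thbs1, Thbs2, Vegfa and Hgf. Thbs2, an antiangiogenic thrombospondin, had 0.205, 0.122 and 0.969 CPM in pericytes, below the FB range of 52.9 to 488 CPM (median 137) (log2FC -8.31 ± 0.74, adjusted p = 3.92e-06). Vegfa (log2FC -3.82 ± 0.53, adjusted p = 2.32e-04), Thbs1 (log2FC -3.55 ± 0.51, adjusted p = 2.80e-04) and Hgf (log2FC -1.75 ± 0.38, adjusted p = 0.00702) lay below all FB libraries too. Limma did not call Thbs2, Vegfa or Hgf.

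Guidance cues and their receptors had 36 tested members, 8 higher and 8 lower (22.2% each), with a median of 0.03 (0.14 with genes of a side without counts set at their bounds). Plxnd1, a semaphorin receptor of vessels, was at 1136, 634 and 851 CPM in pericytes, above all FB libraries at 18 to 88.8 CPM (median 55.7) (log2FC 4.03 ± 0.32, adjusted p = 1.54e-06). Sema6d (log2FC 3.22 ± 0.29, adjusted p = 4.06e-06) and Plxnb1 (log2FC 5.78 ± 0.76, adjusted p = 1.47e-04) were also higher. Robo2, a receptor of SLIT proteins, stood at 9.63, 1.1 and 2.91 CPM in pericytes, below every FB library (229.7 to 391 CPM (median 258); log2FC -5.92 ± 0.63, adjusted p = 2.32e-05). Robo1 was at 1.02, 2.43 and 29.6 CPM in pericytes and 158 to 389 CPM (median 212) in FB. Its log2FC of -4.31 was -6.88 without pericyte library 3, adjusted p = 4.75e-06. Sema3c (log2FC -6.39 ± 0.72, adjusted p = 3.98e-05), Efna5 (log2FC -6.45 ± 0.80, adjusted p = 8.35e-05) and Ntn1 (log2FC -2.59 ± 0.44, adjusted p = 0.00112) were lower.

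BMP and TGF-beta signalling genes had 40 tested members, 8 higher and 8 lower (20% each), with a median of -0.36 (-0.21 with bounds). The lower members were mostly ligands. Bmp4 had 6.35, 54.5 and 20.7 CPM in pericytes, below the FB range of 622 to 1880.1 CPM (median 955) (log2FC -5.16 ± 0.61, adjusted p = 5.78e-05). Bmp5 was at 40.6, 11 and 36.3 CPM in pericytes, below all FB libraries at 90.2 to 2602 CPM (median 401) (log2FC -3.95 ± 0.39, adjusted p = 1.20e-05). Bmp6 (log2FC -6.79 ± 0.73, adjusted p = 2.45e-05) was lower without overlap and Bmp7 (log2FC -2.90 ± 0.44, adjusted p = 4.52e-04) with overlap; Bmp7 means were 879 CPM in PDGFRαhi and 12.6 in CD34+ FB. Chrdl1, a BMP antagonist, stood at 183, 154 and 70.9 CPM in pericytes, above every FB library (0 to 16.1 CPM (median 0.567); log2FC 7.45 ± 0.69, adjusted p = 5.52e-06).

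WNT ligands, R-spondins and antagonists had 22 tested members, 9 of them lower (40.9%) and only Rspo1 higher (log2FC 2.74 ± 0.56, adjusted p = 0.00470), with a median of -2.50 (-2.26 with bounds). Wnt2b, a ligand, had 2.25, 3.29 and 3.51 CPM in pericytes, below the FB range of 9.19 to 662 CPM (median 292) (log2FC -5.51 ± 0.49, adjusted p = 4.26e-06). Wnt5a was at 24.2, 13.3 and 17.4 CPM in pericytes, below all FB libraries at 32.5 to 676 CPM (median 48.6) (log2FC -2.43 ± 0.31, adjusted p = 9.58e-05). Sfrp1, a secreted antagonist, was at 25, 107 and 19.9 CPM in pericytes, and at means of 7752 in CD34+, 30.1 in PDGFRαhi and 3935 in Fgfr2+ FB (log2FC -4.22 ± 0.53, adjusted p = 1.00e-04). Hedgehog reception and response had 13 tested members and a median of -0.66 (-0.28 with bounds). The receptor gene Ptch1 was lower (log2FC -1.85 ± 0.31, adjusted p = 0.00103) and the coreceptor gene Gas1 higher (log2FC 2.37 ± 0.61, adjusted p = 0.0167), though at 1.67 without pericyte library 1, adjusted p = 0.0929. Without pericyte library 2 or 3, 2 members were lower.

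Growth factors of epithelial support had 29 tested members, 10 lower (34.5%), with Hbegf, Igf2 and Fgfr3 higher and a median of -1.52 (-1.49 with bounds). Igf1 stood at 10.9, 4.02 and 5.45 CPM in pericytes, below every FB library (256 to 829 CPM (median 385); log2FC -5.94 ± 0.43, adjusted p = 6.37e-07). Ereg, the EGF receptor ligand epiregulin, was lower without overlap (log2FC -7.54 ± 0.57, adjusted p = 8.95e-07). Fgfr2, whose name marks an FB group, had means of 307 CPM in CD34+, 48.4 in PDGFRαhi and 1685 in Fgfr2+ FB, and 4.3, 1.22 and 1.09 in pericytes (log2FC -7.07 ± 0.55, adjusted p = 1.13e-06). Hbegf, a heparin-binding EGF receptor ligand, had 30.7, 40.3 and 7.87 CPM in pericytes, above the FB range of 0 to 1.07 CPM (median 0.0691) (log2FC 7.83 ± 0.80, adjusted p = 1.55e-05). Igf2 was at 43.6, 131 and 120.3 CPM in pericytes, above all FB libraries at 1.93 to 13.9 CPM (median 5.15) (log2FC 3.99 ± 0.49, adjusted p = 7.46e-05). Fgfr3 was higher with overlap (log2FC 5.82 ± 0.86, adjusted p = 3.79e-04).

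Retinoid metabolism genes had 19 tested members, 6 lower (31.6%), with a median of -0.14. The 3 retinaldehyde dehydrogenases, which make retinoic acid, were all lower. Aldh1a2 stood at 2.05, 17.6 and 0.969 CPM in pericytes, below every FB library (344 to 923 CPM (median 477); log2FC -6.22 ± 0.88, adjusted p = 2.69e-04). Aldh1a1 (log2FC -6.35 ± 0.56, adjusted p = 3.47e-06) and Aldh1a3 (log2FC -5.87 ± 0.61, adjusted p = 1.76e-05) were lower without overlap, as was the retinol dehydrogenase gene Rdh10 (log2FC -4.26 ± 0.71, adjusted p = 9.45e-04). Rdh5 was the higher member (log2FC 2.28 ± 0.68, adjusted p = 0.0324), and its adjusted p was 0.0514 to 0.0939 in the leave-outs that lost it. The higher members numbered 0 without any CD34+ or PDGFRαhi FB library, Fgfr2+ FB library 2 or pericyte library 3, but 3 without Fgfr2+ FB library 3, and 2 without pericyte library 1.

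Chemokines and cytokines had 34 tested members, 11 lower (32.4%) and 4 higher (11.8%), with a median of -1.40. Cxcl12, the ligand of CXCR4, had 9.02, 18.3 and 6.78 CPM in pericytes, below the FB range of 419 to 1603 CPM (median 780.0) (log2FC -6.17 ± 0.42, adjusted p = 4.09e-07). Il33, an alarmin cytokine, was lower without overlap (log2FC -5.69 ± 0.86, adjusted p = 4.78e-04). Cxcl13, a B-cell chemokine, was at 0.205, 0.243 and 0.121 CPM in pericytes and 0.567 to 112 CPM (median 27) in FB (a 280.4-fold ratio of means with a counting interval of 109.5 to 1029, adjusted p = 2.37e-04). Csf1, the macrophage growth factor, was lower (log2FC -2.14 ± 0.38, adjusted p = 0.00159), while Il34, which binds the same receptor, was at 183, 349.7 and 55.0 CPM in pericytes and 1.6 to 93.0 CPM (median 34.0) in FB (log2FC 3.61 ± 0.54, adjusted p = 4.01e-04). Cxcl1, a neutrophil chemokine, was at 73.6, 267 and 106 CPM in pericytes, above all FB libraries at 3.49 to 40.8 CPM (median 16.2) (log2FC 3.19 ± 0.55, adjusted p = 0.00135). Ccl5 and Cxcl10 were the other higher members, and both rested on library 1. Ccl5 had 61.7, 0 and 0 CPM in pericytes (log2FC 5.34 ± 1.42, adjusted p = 0.0198), so that no count was left without library 1. Cxcl10 was at 485, 108 and 16.7 CPM (log2FC 2.1 ± 0.63, adjusted p = 0.0357) and 0.37 without pericyte library 1, adjusted p = 0.721. Its adjusted p also rose to 0.0502 to 0.0677 when any CD34+ or PDGFRαhi FB library, or Fgfr2+ FB library 1 or 3, was left out.

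Complement genes had 20 tested members, 8 lower (40.0%), with Vtn among the higher members and a median of -2.77 (-2.26 with bounds). C7, of the terminal pathway, stood at 1.43, 2.68 and 9.33 CPM in pericytes, below every FB library (68.4 to 1275 CPM (median 391); log2FC -6.49 ± 0.67, adjusted p = 1.71e-05). C3, the central component, was at 67.4, 6.81 and 25.2 CPM in pericytes and at means of 8939.7 in CD34+, 14.7 in PDGFRαhi and 402 in Fgfr2+ FB (log2FC -3.46 ± 0.63, adjusted p = 0.00192). C4b (log2FC -2.76 ± 0.46, adjusted p = 9.60e-04) and Cd55 (log2FC -4.47 ± 0.63, adjusted p = 2.42e-04) were lower with overlap.

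Interferon-induced and MHC genes had 38 tested members, with Nlrc5 higher (2.63%), H2-Ab1, H2-Aa and Psmb9 lower (7.89%) and a median of 0.19. Over all tested genes the shares were 8.67% and 6.91%, so the lower share was near that of all genes. The class II genes H2-Ab1 (at least 9.80-fold lower, adjusted p = 0.0192) and H2-Aa (at least 4.67-fold lower, adjusted p = 0.0383) had no pericyte count. Nlrc5 (log2FC 1.51 ± 0.35, adjusted p = 0.0103) stood near the fold threshold and was not called without CD34+ FB library 2 or 3, Fgfr2+ FB library 1, PDGFRαhi FB library 1 or 2, or pericyte library 1 (1.19, adjusted p = 0.0329); 4 members were higher without pericyte library 3. The lower members numbered 1 without pericyte library 2 or 3, any CD34+ FB library, or PDGFRαhi FB library 1 or 2. Psmb9 (log2FC -1.51 ± 0.49, adjusted p = 0.0475) was called in 1 of the 12 leave-outs, that of pericyte library 1 (-2.35, adjusted p = 0.00288), and H2-Aa had adjusted p of 0.0573 to 0.0754 in the 8 that lost it. Immediate early and heat shock genes, which respond to stimulation and to cell handling, had 30 tested members, 17 of them higher (56.7%), with a median of 2.2. Jun had 1436, 1734 and 685 CPM in pericytes, above the FB range of 45.6 to 453 CPM (median 113) (log2FC 3.3 ± 0.32, adjusted p = 9.71e-06). Fos was at 651, 809 and 270.3 CPM in pericytes, above all FB libraries at 8.29 to 248 CPM (median 30.2) (log2FC 3.80 ± 0.47, adjusted p = 8.09e-05). Egr1 was at 1742, 6206 and 3144 CPM in pericytes, and its mean of 2294 in CD34+ FB exceeded that in PDGFRαhi (407) and Fgfr2+ FB (401; log2FC 2.40 ± 0.29, adjusted p = 6.32e-05). Fosb (log2FC 4.58 ± 0.56, adjusted p = 7.46e-05), Myc (log2FC 4.09 ± 0.45, adjusted p = 2.96e-05), Ier3 (log2FC 4.38 ± 0.50, adjusted p = 4.58e-05) and Dusp1 (log2FC 2.65 ± 0.31, adjusted p = 4.65e-05) were above all FB libraries. The summed level of the list was 10771, 19528 and 10898 CPM in the pericyte libraries and 1632 to 7869.5 in the FB libraries, and its part in the other results was not tested.

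Paired isoforms of respiratory complex subunits had 11 tested members, with Cox4i2, Ndufa4l2 and Higd1b higher, Ndufa4 and Cox7a2 lower, and a median of -0.41 (-0.25 with bounds). Cox4i2, the regulated isoform of a cytochrome oxidase subunit, stood at 96.1, 40.8 and 107 CPM in pericytes, above every FB library (0 to 2.44 CPM (median 0); log2FC 9.28 ± 1.12, adjusted p = 1.50e-04). The ubiquitous isoform Cox4i1 was at 2.05, 22.1 and 45.5 CPM in pericytes and 10.8 to 87.2 CPM (median 33.1) in FB and was not called. Per length, Cox4i2 exceeded Cox4i1 in pericytes (mean 196 against 75.0 TPM), and the order was the opposite in FB (1.34 against 179.9 TPM). Ndufa4l2 was at 14.1, 215 and 93.3 CPM in pericytes and 0.113 to 27.4 CPM (median 1.22) in FB (log2FC 5.74 ± 0.78, adjusted p = 1.79e-04). Its partner Ndufa4 had counts in pericyte library 2 alone, at 0, 2.07 and 0 CPM against 10.3 to 42.5 CPM (median 15.4) in FB (log2FC -4.69 ± 1.23, adjusted p = 0.0182). For Ndufa4l2 and Ndufa4 the means in pericytes were 163 and 0.780 TPM, and in FB 11.1 and 101 TPM. Higd1b and Higd1a had means of 33.7 and 5.78 TPM in pericytes and 1.25 and 29.6 in FB. These 3 pairs changed order between pericytes and FB, and the Higd1b difference was called (log2FC 6.86 ± 1.04, adjusted p = 8.60e-04). Of the other pairs, Cox6a2, Cox7a1 and Cox8b had no pericyte count. Cox7a2 (log2FC -3.47 ± 1.07, adjusted p = 0.0389) lost its call in 10 of the 12 leave-outs, at adjusted p of 0.0539 to 0.0796, with Fgfr2+ FB library 2 and pericyte library 3 as the exceptions. The lower members numbered 1 when any FB library except Fgfr2+ library 2 was left out.

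Several list medians moved by over 1.5 times without 1 pericyte library. Without library 3 the medians were 1.3 for Notch signalling, 1.065 for ion channels, 0.384 for transcription factors, -2.55 for chemokines and cytokines and -2.89 for growth factors. Without library 1, 2 or 3 they were 0.327, -0.884 and -1.22 for retinoid metabolism, 0.454, 0.269 and 0.0174 for vasoactive receptors, 0.895, 0.449 and 0.281 for PDGF and angiogenic factors, and 0.129, -0.0788 and 0.205 for basement membranes. In the same order they were -0.230, -0.728 and -0.598 for integrins, -0.101, 0.394 and -0.164 for metalloproteinases, -0.379, -0.670 and -0.473 for BMP, -0.240, -1.05 and -0.312 for hedgehog genes, 0.0529, -0.764 and -0.337 for respiratory isoforms, 0.179, -0.199 and -0.361 for guidance and -0.299, 0.206 and 0.222 for interferon and MHC genes. With limma, lower members numbered 3 for complement, 4 for WNT and guidance each, 5 for chemokines, BMP and vasoactive receptors each, 6 for growth factors, 11 for fibroblast identity, 3 for metalloproteinases, 2 for ion channels and PDGF each, 1 for integrins and 0 for contractile, Notch, transcription factor, respiratory, interferon and immune genes. Higher members then numbered 9 for contractile genes, 5 for BMP, 2 for chemokines, 1 for hedgehog genes and immune markers each and 0 for WNT, retinoid and interferon genes. DESeq2 gave 2 lower Notch and hedgehog genes each, 2 higher interferon and MHC genes and 2 higher glial markers.

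Markers of other cells were summed in each library. The fibroblast identity list had 18 of 24 members lower (75.0%) with a median of -3.70, and summed to 4487, 4589 and 3152 CPM in pericytes against 17788 to 95157 in FB, led in pericytes by Col1a1; Pi16 had no pericyte count. Its exception was Thy1, the surface protein CD90, which had 114, 410.3 and 117 CPM in pericytes, above the FB range of 0 to 5.98 CPM (median 0.138) (log2FC 9.34 ± 0.59, adjusted p = 2.26e-07). Smooth muscle markers had 12 tested members, with Lmod1, Des, Myh11, Synpo2 and Cnn1 higher, and summed to 4550.0, 3489.5 and 3524 CPM in pericytes against 244 to 2579 in FB; Myh11 led, and Pcp4, Chrm2 and Chrm3 had no pericyte count. No smooth muscle marker was lower in edgeR (2 at an unadjusted p below 0.05 and 2 in DESeq2), but 1 was without Fgfr2+ FB library 1 or pericyte library 3 and 2 were without pericyte library 2. Cnn1, calponin, was low throughout, at 1.23, 8.27 and 11.3 CPM in pericytes and 0.680 to 2.45 CPM (median 1.1) in FB (log2FC 2.50 ± 0.72, adjusted p = 0.0283), and was not called without CD34+ FB library 3 (adjusted p = 0.0702), nor without 5 others (0.0527 to 0.0829): CD34+ FB libraries 1 and 2, PDGFRαhi FB library 1 and pericyte libraries 2 and 3.

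Endothelial markers had 14 tested members, of which Tek, Emcn, Tie1, Ptprb and Vwf were higher, and summed to 366, 418 and 282 CPM in pericytes against 63.8 to 117 in FB. Tek led, and Cldn5, Erg, Sox17 and Sox18 had no count in any pericyte library. Emcn was at 7.17, 5.48 and 4.72 CPM in pericytes, Tie1 at 18.2, 38.7 and 8.96, Vwf at 76.0, 49.6 and 19.9 and Ptprb at 2.25, 119 and 18.8. Ptprb was at 2.44 without pericyte library 2, adjusted p = 0.0527, and Vwf at 1.70 without pericyte library 1, adjusted p = 0.0541; 3 members were higher without pericyte library 2, where Emcn, as without library 1 or 3, missed the filter and was not tested. Immune markers had 12 tested members and summed to 437, 108 and 122 CPM against 20.6 to 339 in FB. Cd68 led at 218, 73.0 and 41.4 CPM, the B-cell marker Cd79a was at 191, 0.852 and 1.57, and Cd3g, Cd79b, Itgax, Fcer1g, Tyrobp, Cd52, Adgre1 and Cpa3 had no pericyte count. Cd68, Cd79a and Itgam (most of whose sequence other genes share) were higher, the former pair only with library 1: Cd68 was at 2.23 without pericyte library 1, adjusted p = 0.132, and Cd79a at 2.54 without pericyte library 1, adjusted p = 0.156, so that 1 member was left. Lower were Lyz2 (a 174-fold ratio of means with a counting interval of 31.3 to 6887, adjusted p = 0.00532) and Fcer1g (at least 2.85-fold lower, adjusted p = 0.0356), with 1 left when any CD34+ FB library, PDGFRαhi FB library 1 or 2, or pericyte library 1 or 2 was omitted. Fcer1g was the gene lost, at adjusted p of 0.0569 to 0.0714. The gate removed CD31+ and Lineage cells, and the part of endothelial and immune RNA in the other results was not tested.

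Epithelial markers had 6 tested members, with none called by edgeR, DESeq2 or limma (1 at an unadjusted p below 0.05). They summed to 5.74, 70.6 and 8 CPM in pericytes against 2.61 to 12.5 in FB; Vil1 led, and Epcam, Krt8, Alpi, Olfm4, Lyz1, Reg3b, Reg3g, Phgr1, Cldn3 and Cldn7 had no pericyte count. Library 2 had the highest sum. Glial and neuronal markers had 4 tested members and summed to 86.1, 30.2 and 34.4 CPM against 5.24 to 27.2 in FB. Fabp7 led (31.8, 6.57 and 9.57 CPM) and was higher, and Sox10, Gfap, Foxd3 and Ret had no pericyte count. Without any 1 pericyte library Fabp7 missed the filter of 3 libraries and was not tested. No other member was called without pericyte library 1 or 3. Markers of interstitial cells of Cajal had 5 tested members and summed to 1107, 573 and 736 CPM against 44.4 to 1134 in FB. Ano1, which led, was higher, and Gja1, connexin 43, was lower: it was at 0.205, 0.730 and 0.485 CPM in pericytes, below all FB libraries at 15.2 to 633 CPM (median 241) (log2FC -7.78 ± 0.53, adjusted p = 4.35e-07). Without pericyte library 1 the lower members of that list numbered 2. The mesothelial list had 1 tested member, Wt1, not called (log2FC 1.18), and a sum of 9.43, 7.91 and 1.21 CPM in pericytes against 0.526 to 6.22; Msln, Upk3b, Gpm6a and Upk1b had no count. Erythroid markers had 2 tested members, Alas2 (-3.19) and Slc4a1 (0.39), not called by edgeR (1 at an unadjusted p below 0.05, 1 called by DESeq2), and summed to 1.23, 0 and 2.18 CPM against 2.21 to 45; Hbb-bs, Hbb-bt, Hba-a1 and Hba-a2 had no pericyte count.

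The smooth muscle cells of the same tissue share the ESAM-1+ gate; against the same pericyte libraries, 620 of 16232 genes were higher in pericytes (3.82%) and 756 lower (4.66%). SMC library 3 stood apart, with 17.641% of its counts mitochondrial (4.594 and 5.953% in libraries 1 and 2); without it 431 genes were higher and 683 lower, and the genes named here kept their calls. For the genes of mural identity the log2FC, pericytes minus SMC, were 9.93, adjusted p = 3.24e-06 for Notch3, 5.32, adjusted p = 8.15e-07 for Pdgfrb and 2.65, adjusted p = 7.82e-05 for Rgs5. Of the Notch targets, Heyl was at 10.05, adjusted p = 3.24e-06 and Hey2 at 6.72, adjusted p = 0.00142. Of the contractile genes, Myh11 was at -2.86, adjusted p = 2.05e-05, Acta2 at -2.52, adjusted p = 2.56e-04 and Cnn1 at -7.15, adjusted p = 3.62e-06. For Des (0.69, adjusted p = 0.372) and Synpo2 (0.09, adjusted p = 0.922) no difference was called. Several genes that were lower than in FB were also lower than in SMC, among them Tgfbi (-8.86, adjusted p = 5.76e-09), Igf1 (-7.92, adjusted p = 1.02e-07) and Bmp4 (-4.52, adjusted p = 8.03e-05).

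Colonic pericytes were compared with the mean of 4 colonic FB groups in libraries that the small intestinal fit did not use, although the FB gates differed between the tissues. By the labels both tissues came from 3 mice, for which the fits have no term. There, 1481 of 16456 genes were higher (9%) and 1247 lower (7.58%). Of the genes higher in small intestinal pericytes, 543 were also higher in the colon, 39.3% of the small intestinal and 36.7% of the colonic list. For the lower genes the number was 434, or 39.3% and 34.8%. Opposite calls were made for 16 higher and 20 lower genes. Among the lists, 21 of 22 higher members of mural identity, 9 of 10 of Notch signalling and 25 of 30 lower members of the interstitial matrix were called the same way in the colon. So were 9 of 17 higher immediate early and heat shock genes, 1 of 4 higher chemokines and cytokines, 2 of 5 lower basement membrane genes, 0 of 3 lower interferon-induced and MHC genes and 0 of 5 higher endothelial markers. The tissue difference itself (below) was called for 4, 0 and 10 of the former 3 sets of called members and for 5, 0, 2, 1 and 1 of the latter 5. Notch3 had a colonic log2FC of 10.33, adjusted p = 1.41e-12, Lamc3 of 10.46, adjusted p = 1.16e-09, Gja4 of 11.14, adjusted p = 1.70e-09 and Lpar1 of -6.89, adjusted p = 2.44e-09.

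The difference between the tissues was tested itself, as the small intestinal minus the colonic log2FC, and was called for 684 of 17404 genes (3.93%). Tek differed (adjusted p = 1.01e-06): it was higher in small intestinal pericytes (3.75) and lower in colonic ones, where its mean of 0.270 CPM gives no measure of size. Cxcl12 (-3.95 ± 0.38, adjusted p = 1.01e-06) was lower in both tissues, and more so in the small intestine. Rgs5 differed by -3.60 ± 0.4, adjusted p = 6.59e-06, with a colonic log2FC of 8.32. The contractile genes Myh11 and Acta2 differed in the same direction, with Myh11 at -3.96 ± 0.60, adjusted p = 3.03e-04 and Acta2 at -2.78 ± 0.45, adjusted p = 6.38e-04. Synm differed too (adjusted p = 1.15e-06), at a mean of 0.582 CPM in small intestinal pericytes, again too low for a size, and had a colonic log2FC of 0.24, adjusted p = 0.667. Agtr1a (4.12 ± 0.66, adjusted p = 6.38e-04) and Thy1 (7.10 ± 0.98, adjusted p = 1.14e-04) differed in the other direction, with smaller colonic fold changes (0.98 and 2.26). Both genes had FB group means below 1 CPM in the small intestine, so the sizes of these differences are uncertain. CD90, the protein of Thy1, was part of the colonic FB gates, so the Thy1 difference is not independent of the sort. Cacna1g was lower in small intestinal pericytes, but its colonic log2FC was 2.49, a difference of -8.36 ± 1.06, adjusted p = 4.68e-05.

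**Figure D3:**
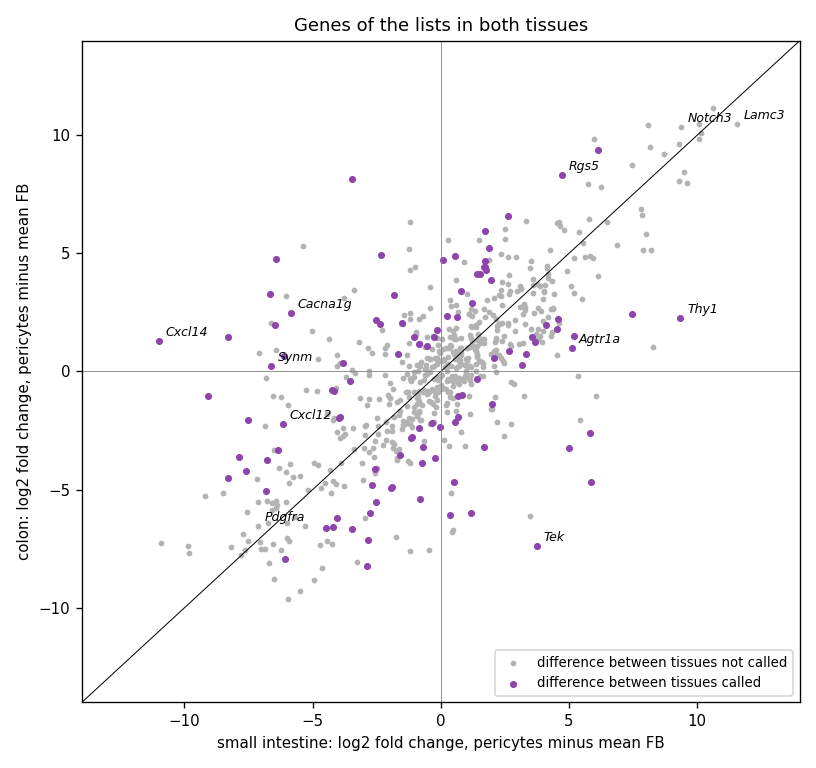
Log2 fold change, pericytes minus mean FB, in the small intestine (x axis) and colon (y axis) of 662 list genes tested in both tissues, with the diagonal drawn. Coloured points are the 103 genes whose difference between the tissues was called (684 of 17404 over all genes in that test). Tek, Synm, Thy1 and Cacna1g lie far from the diagonal and Notch3 and Lamc3 close to it.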

How the data were processed

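The authors sequenced RNA of sorted populations in bulk and, by their processing notes, used Trim Galore 0.4.0, FastQC 0.11.2 and kallisto 0.42.5 with mm10 (GRCm38); the transcript set is not given in the sources used here. The deposited files give estimated counts per transcript, which the authors made with kallisto. The TPM values were also deposited by the authors and scale those counts by transcript length and library total. TPM printed here were rescaled to the matched genes of each library. Of 98492 transcripts per file, 97116 were matched to 32342 genes of GENCODE M21, and they held 97.807 to 99.187% of the counts in the 12 libraries.

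Counts were summed to genes and rounded. A gene needed 6 counts or more in no fewer than 3 libraries to be fitted in edgeR 4.0.16 (R 4.3.3, TMM scaling, quasi-likelihood test), with 1 mean per population. The fit kept the default prior count of edgeR, and a prior count of 2 was used only for the log2 CPM of the correlations and principal components. P-values were adjusted by Benjamini and Hochberg over all tested genes. CPM were scaled over all 30 libraries. The tissue difference came from 27 libraries and the contrast with SMC from 15. The steps were tested on simulated data. Alternatives were DESeq2 1.42.0, limma 3.58.1, other scalings, filters, fold thresholds and counts, the replicate number as a block, other sets of libraries, and each library left out; the leave-outs against single FB groups, those of genes without overlap, that of an SMC library, and those with 6 counts in 2 libraries were chosen after seeing the data.

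Members and lists were chosen with earlier results of these data known. Named genes were taken from the top 12 by fold change, higher and lower, of called genes that had no overlap between groups and a mean of 20 CPM or more on the higher side. Added to them were called members of each list with the smallest adjusted p, its most abundant members, the sorting genes and partner isoforms. Where a list had 5 or fewer called members, or a call hung on 1 library, the members were named after their values were seen.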

Additional observations from a re-analysis of the deposited data

Results flagged for a closer look

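Of 202 named genes called in the small intestine, 51 had a small intestinal log2 fold change, pericytes minus mean FB, that differed from the colonic one in the test of the difference itself. Over all genes in that test, the difference was called for 684 of 17404 (3.93%). The named genes were chosen partly by their small intestinal fold changes and adjusted p, so the shares are not directly comparable. The values below are the small intestinal minus the colonic log2 fold change. For 22 genes the difference was positive: Tek 11.10, Fgfr3 8.39, Thy1 7.10, Chrdl1 5.02, Agtr1a 4.12, C4b 3.24, C3 3.19, Fn1 2.99, Osr1 2.97, Avpr1a 2.72, Jun 2.56, Sfrp1 2.36, Fosb 2.34, Cd55 2.14, Myc 2.12, Mmp2 2.09, Timp3 2.08, Col3a1 1.92, Fbln1 1.82, Dusp1 1.76, Col1a1 1.55 and Zeb2 1.51. For 29 genes it was negative. These were, from the most negative, Cxcl14 -12.44, Lyz2 -10.00, H2-Ab1 -9.93, Aplnr -8.44, Cacna1g -8.36, Synm -6.85, Hs3st1 -5.47, Lama1 -5.47, Tgfbi -5.19, Ednrb -5.07, Ptger4 -4.28, Itga8 -4.23, Myh11 -3.96 and Cxcl12 -3.95. The list went on with Thbs2 -3.82, Rgs5 -3.60, Nid2 -3.60, Rdh10 -3.49, Col6a5 -3.35, Rgs4 -3.25, Thbs1 -3.16, Aldh1a1 -3.02, Bmp6 -3.02, Acta2 -2.78, Mylk -2.64, Cspg4 -2.55, Bmp5 -2.05, Myl9 -1.94 and Kcnn3 -1.75. Means were below 1 CPM in small intestinal pericytes for Cxcl14, Lyz2, H2-Ab1, Aplnr, Synm, Hs3st1, Lama1, Tgfbi, Ptger4, Thbs2 and Bmp6, and in colonic pericytes for Tek and Col6a5, so their fitted differences rest on few counts and are no measure of size. Of the other genes, Thy1, Fgfr3, Chrdl1, Agtr1a, Avpr1a and Rgs4 had a mean below 1 CPM in at least 1 FB group. The sizes of their differences are therefore uncertain too. CD90, the protein of Thy1, was also part of the colonic FB gates. The FB gates differed between the tissues, mice had no term in the fit, and their part in these differences was not tested. Populations held 3 libraries each, too few for a test of single outlying libraries.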

How the results depend on the processing

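With DESeq2, lower genes against the pooled FB numbered 1770 and higher genes 1638. Higher and lower genes then numbered 1225 and 1522 against CD34+ FB, 1399 and 1477 against PDGFRαhi FB, and 1460 and 1546 against Fgfr2+ FB. With limma and quality weights, 616 genes were higher and 254 lower than in pooled FB, so 70.8% of calls were higher genes, against 55.6% with edgeR and TMM. Median log2 fold changes of all genes were 0.0232 with TMM, 0.101 with RLE scaling, 0.1 with DESeq2, -0.318 with limma, -0.0833 with upper-quartile scaling, -0.244 without a filter and -0.16 with the replicate block. No other scaling, filter, count, set of groups or fold threshold moved the pooled counts by more than 1.5 times.

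With the replicate number as a block, 799 genes were higher and 849 lower than in pooled FB, and 48.5% of calls were higher genes. The labels speak of 3 mice and both tissues, and no source ties a number to 1 mouse in every population, so the numbers were not taken as pairs. Over 18 same-numbered pairs the deviations from the group means correlated at -0.0438 to 0.075 (mean 0.0173). The mean for different numbers was -0.00848, and 9 of 12 libraries correlated best with their own number. Same-numbered libraries were thus slightly more alike, which does not settle whether they share a mouse. The block moved no count against a single FB group, or in the colon, by more than 1.5 times.

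Over the 12 leave-outs, higher and lower genes ran from 1046 to 1648 and from 783 to 1732 against pooled FB, from 305 to 924 and 531 to 1511 against CD34+ FB, from 388 to 970 and 556 to 1494 against PDGFRαhi FB, and from 529 to 1090 and 661 to 1446 against Fgfr2+ FB. The highest of each came without pericyte library 3. Besides it, the omission of any CD34+ FB library (305 to 310 higher and 531 to 562 lower than in CD34+ FB), or of PDGFRαhi FB library 1 or 2 (388 or 397 higher and 596 or 556 lower than in PDGFRαhi FB), moved a count by more than 1.5 times.

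Of 202 called genes named, 127 were called in the same direction with all libraries and every alternative, 72 lost the call in at least 1, and 3 changed direction. With leave-outs included these were 115, 75 and 3, and 9 had no value in at least 1 setting. The direction changed for Ccl5 with limma (-1.15) and without pericyte library 1, where no pericyte count was left and the fit (-5.39 under either filter) is no measured fold, for Hspg2 with length-scaled TPM counts (0.0688), and for Itga8 with the 9 FB libraries as 1 group (-0.55). The following lists cover the alternatives with all libraries kept, and leave-outs ended further calls of some of these genes. Calls were lost with limma alone for Alpl, Aplnr, Cacna1g, Col1a1, Col1a2, Col4a1, Cox7a2, Cxcl13, Dll1, Efna5, H2-Ab1, Hgf, Hs3st1, Itgb8, Itpr3, Kcng4, Lyz2, Meox1, Ndufa4, Phf24, Sox9, Synm, Thbs2, Vegfa and Vwf, with the 9 FB libraries as 1 group alone for Abcc9, Agtr1a, Avpr1a, Dusp1, Egr1, Il34, Kcnj8, Mmp11, Myh11, Procr, Tek, Wnt5a and Zeb2, with either for Acta2, Bmp7, C3, Cspg4, Ednrb, Gas1, Itga5, Myl9, Pi16 and Rspo1, and with other or more settings for Adamts15, C4b, Cd68, Cd79a, Cnn1, Col3a1, Cxcl10, Fcer1g, Fn1, H2-Aa, Hand2, Hey1, Itgb7, Lamb2, Lfng, Mylk, Nid2, Nlrc5, Osr1, Prkg1, Psmb9, Rdh5, Ryr3 and Vcl. Of 62 list counts, 22 stayed within 1.5 times under every setting; limma moved 26 and the 9 FB libraries as 1 group 15. Other leave-outs of Ccl5 reached 5.95. What caused these differences was not tested.

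The limits are those of 3 libraries per population, of unequal pericyte libraries, of gates that were set by the authors, and of sums over transcripts for genes that share sequence. Whether same-numbered libraries share a mouse is not known. Levels are relative to each library's total.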
